A study of Mus musculus with 8 samples.

Results

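The Trk receptors and the sortilin family are the genes followed here in nuclear RNA of mouse place cells. They were chosen by name: the neurotrophin receptors Ntrk2 and Ntrk3, and the sorting receptors Sort1, Sorl1, Sorcs1, Sorcs2 and Sorcs3. Of these 7 genes, 6 were among the 15519 genes of the deposited table and all 6 passed the filter on low values; Sorcs2 was not analysed here. Place cells are hippocampal neurons that fire at particular locations, and the study set Recurring against Day 0 place cells, 4 libraries of each. All 8 libraries came from wild-type mice and hold nuclear RNA labelled as hippocampal pyramidal cells; the cells were classified by imaging during navigation and their nuclei phototagged and collected. The labels name the classes without defining them further, give no age or sex, and give each library a different mouse number. That number is all that ties a library to an animal, so the p-values describe the spread among the 8 libraries, each of a separately numbered mouse, and no more.

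Trk receptors are tyrosine kinases of the cell surface that neurotrophins switch on. Ntrk2 encodes TrkB, the receptor of BDNF and neurotrophin-4, which in hippocampal pyramidal neurons is known for its part in synaptic plasticity, and Ntrk3 encodes TrkC, the receptor of neurotrophin-3. The sortilin family shares a VPS10 domain and carries proteins between the Golgi, endosomes and the cell surface, neurotrophins, their precursors and the amyloid precursor protein among them. Sort1 encodes sortilin, which binds proneurotrophins and progranulin, Sorl1 encodes SORLA, which binds the amyloid precursor protein, and the SorCS receptors act on synaptic and neurotrophin receptors.

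Depth was between 8374986 and 14887866 reads per library. Within a gene the deposited values were whole reads times a constant of that gene, so the reads were recovered and divided by library size factors; the result is called a normalized count below. The 14 CA1 pyramidal markers were all in the table, and their summed normalized count was 95705 to 110407 in Recurring and 82387 to 107620 in Day 0 libraries. Gria2 alone averaged 49255 and 46560 of it, so the sum says little of the other markers. Of the 14, 8 were higher and 6 lower in Recurring cells, and none passed the adjusted p threshold used below. In 1 of them, Camk2a, every Recurring library was below every Day 0 library, as in 1.17% of all tested genes. Markers of other cells were also read. Astrocyte markers (14 of 15 in the table) summed to 3145 to 21991 in Recurring and 2063 to 3251 in Day 0 libraries, with 1 to 3 and 3 to 7 of them at 0, and the defining marker Aqp4 was not analysed here. Microglia markers (5 of 9) summed to 507 to 6056 in Recurring and 213 to 707 in Day 0 libraries, with 0 to 3 and 1 to 4 at 0, and interneuron markers (11 of 13) to 1542 to 12318 and 216 to 3512, with 1 to 6 and 1 to 8 at 0. Oligodendrocyte markers (9 of 12) summed to 1457 to 7159 in Recurring and 1510 to 10218 in Day 0 libraries, with 0 to 4 at 0 in each group. Of the markers tested, 8 of 10 astrocyte, 3 of 4 microglia, 5 of 7 interneuron and 2 of 8 oligodendrocyte markers were higher in Recurring cells. The groups did not overlap in 2 of the astrocyte and 1 of the microglia markers, all higher, as in 1.24% of all tested genes. None of them passed the adjusted p threshold. In each group, replicates 1 and 2 held Xist reads (9072 to 15633) and no Y-linked reads, and replicates 3 and 4 held Y-linked reads (11840 to 17596) and at most 67 Xist reads.

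None of the 6 genes differed between Recurring and Day 0 place cells beyond the spread between libraries, and in all 6 the groups overlapped. Ntrk3, Sort1 and Sorcs3 kept within 2.07-fold, 3.41-fold and 2.77-fold over the 8 libraries, Ntrk2 and Sorl1 ranged over 16.5-fold and 11.2-fold, and Sorcs1 was at 0 in some libraries of each group. By limma with the Benjamini-Hochberg adjustment over all genes, 0 of the 6 passed an adjusted p threshold of 0.05, as did 0% of the 11078 genes tested. At an unadjusted p under 0.05 it was 0 of 6, against 401 of 11078 (3.62%; 1.88% higher and 1.74% lower in Recurring), and 0 of 6 had groups that did not overlap, against 267 of 11078 (2.41%). In limma voom on the recovered reads 0 genes were called as well. The adjusted p was 0.998 for each of the 6 genes. On the scale log2(normalized count + 1), 3 genes were higher and 3 lower in Recurring cells, with a median difference of -0.05, beside 0.005 over all genes tested. In bulk samples such as these, fewer cells of a type and less RNA per cell cannot be told apart.

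Ntrk2, the BDNF receptor, stood at 1405, 915, 658 and 937 normalized counts in Recurring replicates 1 to 4, against 1210, 1207, 212 and 3492 in Day 0 replicates 1 to 4. Both the highest and the lowest library belonged to the Day 0 group, 16.5-fold apart, and all Recurring libraries lay between them. The mean log2 level was 9.88 ± 0.45 in Recurring and 9.996 ± 1.67 in Day 0 cells (SD, n = 4 each). Recurring minus Day 0 was -0.11 (SE 0.75, 95% interval -1.70 to 1.47), with a 2-sided exact permutation p of 0.829. The direction rested on single libraries, since the difference was 0.48 without Day 0 replicate 4, 0.06 without Recurring replicate 3 and -0.87 without Day 0 replicate 3. Astrocytes are known to carry mainly a truncated form of TrkB. The astrocyte marker sum was 3205 in the library with the most Ntrk2, Day 0 replicate 4, and 2149 in the one with the least, Day 0 replicate 3, where 7 of the 14 markers were at 0. The astrocyte marker sum was 21991, 11039, 3927 and 3145 in Recurring replicates 1 to 4, and 2063 and 3251 in Day 0 replicates 1 and 2. Recurring replicate 1 had the second-highest Ntrk2 level. Recurring replicate 2, with 11039, had 915 normalized counts of Ntrk2, and Day 0 replicate 1, with the lowest sum, had 1210. The oligodendrocyte marker sum was highest in Day 0 replicate 4, at 10218, and lowest in Recurring replicate 2, at 1457. The oligodendrocyte precursor marker sum was highest in Day 0 replicate 4, at 2786, and lowest in Day 0 replicate 3, at 311. In each of those libraries 3 of the 4 precursor markers in the table were at 0. The part of these cells in the Ntrk2 values was not tested. The annotation lists 10 transcripts of Ntrk2, and a count per gene does not separate full-length from truncated receptors.

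Ntrk3, the neurotrophin-3 receptor, was the steadiest of the 6 genes. Its normalized counts were 3243, 6123, 2961 and 4563 in Recurring replicates 1 to 4, against 3118, 3255, 3555 and 4497 in Day 0 replicates 1 to 4. The highest and the lowest library were both Recurring ones, 2.07-fold apart. Its log2 level was 11.98 ± 0.48 in Recurring and 11.80 ± 0.24 in Day 0 cells (SD, n = 4 each), a difference of 0.18 (SE 0.36, 95% interval -0.58 to 0.94; 2-sided exact permutation p = 0.6). Its interval on the fold scale reached from 0.67 to 1.92, the narrowest among the 6 genes. Without Recurring replicate 2 the difference was -0.02. Counts per gene pool the 20 annotated Ntrk3 transcripts.

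Sort1, which encodes sortilin, had 1514, 1650, 1864 and 2857 normalized counts in Recurring replicates 1 to 4, against 1673, 2253, 4788 and 1402 in Day 0 replicates 1 to 4. One Day 0 library, replicate 3, lay above all others, and the lowest was also a Day 0 library. The log2 level was 10.90 ± 0.41 in Recurring and 11.13 ± 0.78 in Day 0 cells (SD, n = 4 each). The difference was -0.23 (SE 0.48, 95% interval -1.25 to 0.78; 2-sided exact permutation p = 0.657), and it was 0.13 without Day 0 replicate 3. That library was also the one with the least Ntrk2.

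Sorl1, the gene of SORLA and a known Alzheimer's disease risk gene, had 3569, 645, 2969 and 1345 normalized counts in Recurring replicates 1 to 4. In Day 0 replicates 1 to 4 it had 2689, 3212, 3136 and 320. Of the 8 libraries, 5 lay between 2689 and 3569, and 3 lay well under that: Recurring replicates 2 and 4 and Day 0 replicate 4, so low libraries occurred in both groups. The log2 level was 10.77 ± 1.13 in Recurring and 10.75 ± 1.62 in Day 0 cells (SD, n = 4 each). Recurring minus Day 0 was 0.02 (SE 0.73, 95% interval -1.52 to 1.56; 2-sided exact permutation p = 0.971). Its sign had no hold: it was -0.79 without Day 0 replicate 4, and -0.32 and -0.24 when Recurring replicate 1 or 3 was left out. It was also -0.02 with libraries scaled to equal total reads, -0.0016 with trimmed-mean scaling and -0.40 with library weights. Sorl1 is also expressed by microglia, whose marker sum in the 3 low libraries was 1861 in Recurring replicate 2, 6056 in Recurring replicate 4 and 676 in Day 0 replicate 4. In the 5 others it was 808 and 507 in Recurring replicates 1 and 3, and 382, 707 and 213 in Day 0 replicates 1 to 3. The part of microglia in the Sorl1 values was not tested.

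**Figure D1:**
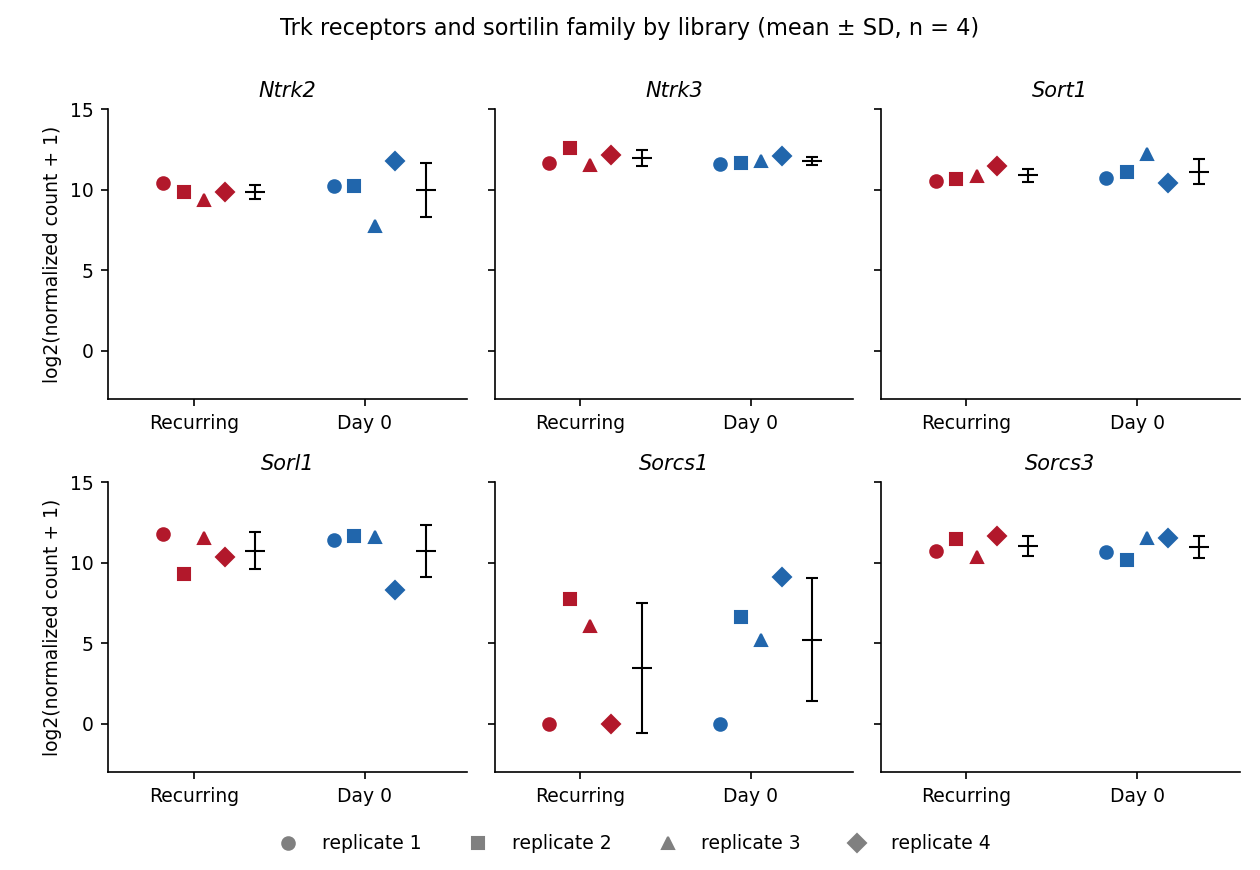
Level of each of the 6 genes as log2(normalized count + 1) in every library, Recurring (red) beside Day 0 (blue), with the symbol shape giving the replicate and a bar giving mean ± SD (n = 4). All groups overlap: Ntrk3 spans 2.07-fold over the 8 libraries, Ntrk2 spans 16.5-fold with both extremes in Day 0, and Sorcs1 is at 0 in 3 libraries.

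Sorcs1, known for sorting the amyloid precursor protein, neurexins and AMPA receptors, was the lowest member. It had 0, 215, 67.8 and 0 normalized counts in Recurring replicates 1 to 4, against 0, 99.7, 35.8 and 547 in Day 0 replicates 1 to 4. Reads were thus present in 2 Recurring and 3 Day 0 libraries, and the 3 libraries at 0 were spread over both groups. Of the 11078 genes tested, 5056 were at 0 in 1 or more libraries. A count of 0 allows up to 3 reads, which is 1.86 normalized counts in Recurring replicate 1, 3.04 in Recurring replicate 4 and 2.23 in Day 0 replicate 1. All 5 other libraries were above that. The log2 level was 3.46 ± 4.06 in Recurring and 5.24 ± 3.84 in Day 0 cells (SD, n = 4 each), a difference of -1.77 (SE 2.61, 95% interval -7.28 to 3.73; 2-sided exact permutation p = 0.571). An interval of this width sets no useful bound on a difference in Sorcs1.

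Sorcs3, a postsynaptic receptor needed for long-term depression in mouse hippocampus, had 1714, 2893, 1309 and 3230 normalized counts in Recurring replicates 1 to 4. In Day 0 replicates 1 to 4 it had 1628, 1164, 3011 and 2943. Each group held 2 higher libraries (2893 and 3230 in Recurring, 2943 and 3011 in Day 0) and 2 lower ones (1309 and 1714, and 1164 and 1628). The log2 level was 11.06 ± 0.62 in Recurring and 10.98 ± 0.67 in Day 0 cells (SD, n = 4 each), a difference of 0.08 (SE 0.49, 95% interval -0.94 to 1.10; 2-sided exact permutation p = 0.743). The sign turned when any of 4 libraries was left out, to -0.06 and -0.12 for Recurring replicates 2 and 4, and to -0.02 and -0.19 for Day 0 replicates 1 and 2. Sorcs1 and Sorcs3 are neighbouring protein-coding genes on chromosome 19, on opposite strands. Their levels were not alike: Sorcs3 had 1628 or more normalized counts in each of the 3 libraries with no Sorcs1 read.

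The spread of these genes was far larger than the error of counting reads, which at their mean read counts was 0.02 to 0.13 log2 units. That error does not cover how RNA was captured from the nuclei, which was not measured. For Sorcs1, at 0 in 3 libraries, the value at the mean does not hold for single libraries. For Ntrk3, Sort1 and Sorcs3 the standard error of the difference, 0.36, 0.48 and 0.49, was a little under the median for genes of like level (within 0.5 log2 units), which was 0.41, 0.51 and 0.51. For Ntrk2 and Sorl1 it was 0.75 and 0.73, above medians of 0.68 and 0.54. For Sorcs1 it was 2.61 beside a median of 2.50. By this measure Sorl1 varied more between libraries than most genes of its level. The limma fit draws each gene's standard error toward that of genes of like level, so nearness to these medians is partly built in.

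Where both patterns of Xist and Y-linked reads were looked at on their own, with 2 libraries per group and no test, 4 of the 6 genes had differences of opposite sign. Ntrk3 differed by 0.48 in the Xist libraries and by -0.12 in the Y-linked ones, Sorcs3 by 0.69 and -0.53, Sorcs1 by 0.55 and -4.10, and Sorl1 by -0.95 and 0.995. Ntrk2 differed by -0.09 and -0.13, and Sort1 by -0.30 and -0.17. In a fit with a term for the difference between the patterns, chosen after the values were seen, the term for Sorl1 was 1.95 (SE 1.52) and that for Sorcs3 was -1.23 (SE 0.91), and limma's adjusted p of these terms lay between 0.872 and 0.999 over the 6 genes.

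Levels were compared between genes per kilobase, as normalized counts divided by the exon length of the gene in GENCODE vM21. That annotation is of an earlier build, GRCm38, than the authors' GRCm39. The order of mean levels per kilobase over the 8 libraries was Sorcs3 (314 ± 121), Sort1 (297 ± 149), Sorl1 (197 ± 112), Ntrk3 (130 ± 35.9), Ntrk2 (65.0 ± 50.7) and Sorcs1 (14.3 ± 22.2; SD, n = 8). The first 4 were not separated from their neighbours, since Sorcs3 was above Sort1, Sort1 above Sorl1 and Sorl1 above Ntrk3 in 5 of 8 libraries each. Ntrk3 was above Ntrk2 in 7 of 8 and Ntrk2 above Sorcs1 in 8 of 8. Of the 10602 tested genes with a length, 88.1% had a lower mean level per kilobase than Sorcs3, 87.2% than Sort1, 78.0% than Sorl1, 65.5% than Ntrk3, 40.9% than Ntrk2 and 6.15% than Sorcs1.

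The order depended on the length used, because the Trk receptor genes have long untranslated exons. Exon length was 19.3 kilobases for Ntrk2 and 30.2 for Ntrk3, of which 2.66 and 2.92 were coding, while Sort1 had 7.57 with 2.57 coding. Per coding kilobase the order of means was Ntrk3 (1339), Sort1 (874), Sorcs3 (612), Ntrk2 (471), Sorl1 (336) and Sorcs1 (30.4). The counts divided here were those of the whole gene, reads of untranslated exons included, which raises genes with long untranslated exons. Ntrk3 was above Sort1 in 7 of 8 libraries and Sort1 above Sorcs3 in 6. Sorcs3 was above Ntrk2 and Ntrk2 above Sorl1 in only 4 of 8 each. Sorcs1 came last by either length, and Ntrk3 was above Ntrk2 by either.

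The make-up of each family within a library does not depend on library depth. Ntrk2 made up 27.4% ± 9.18 of the summed Trk level per kilobase in Recurring and 34.5% ± 19.2 in Day 0 cells (SD, n = 4 each), and Ntrk3 the rest. In 7 of the 8 libraries Ntrk3 was the higher of the pair. The exception was Day 0 replicate 4, where Ntrk2 made up 54.8%, and the lowest share of Ntrk2, 8.51%, was in Day 0 replicate 3. In the sortilin family, Sorcs3 made up 40.8% ± 14.4 in Recurring and 36.5% ± 16.3 in Day 0 cells, Sort1 33.1% ± 5.70 and 36.4% ± 8.91, Sorl1 24.9% ± 17.1 and 24.2% ± 15.3, and Sorcs1 1.19% ± 1.70 and 2.82% ± 4.43 (SD, n = 4 each). The share of Sorl1 reached 41.7% in Recurring replicate 1, where it was the highest member, and was 4.09% in Day 0 replicate 4. That of Sorcs3 lay between 21.6% in Day 0 replicate 2 and 59.7% in Day 0 replicate 4. The leading member was Sorl1 in 3 libraries, Sorcs3 in 3 and Sort1 in 2.

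**Figure D2:**
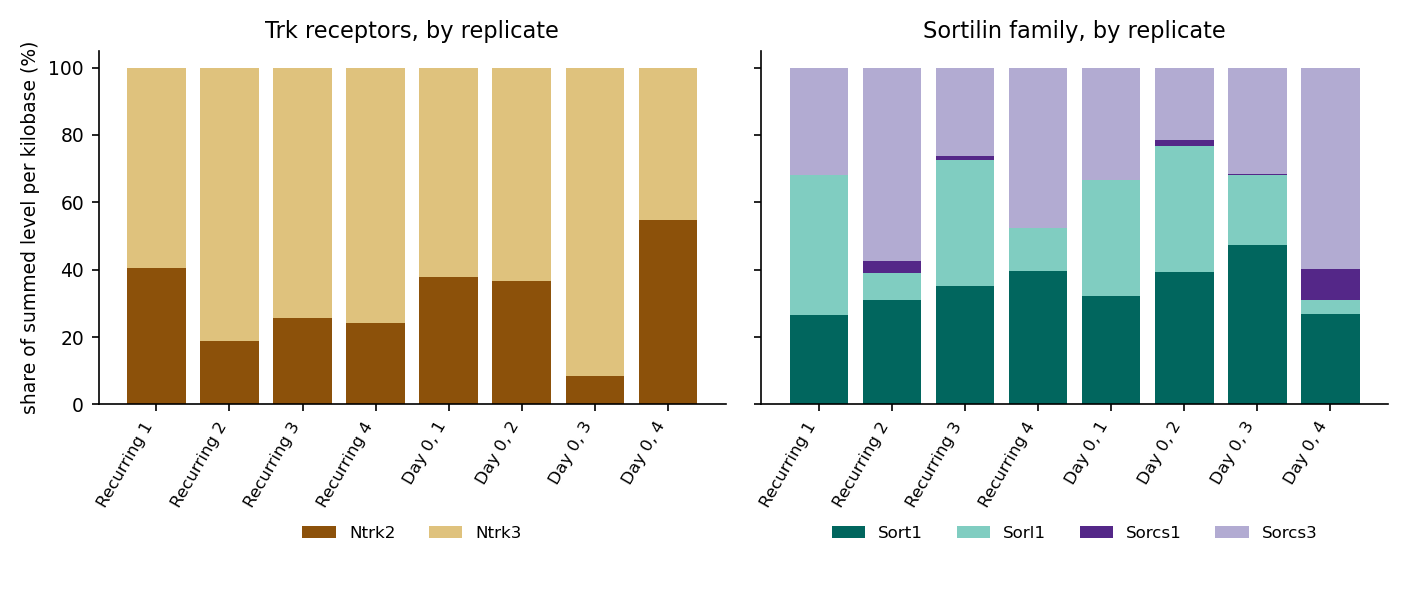
Share of each gene in the summed level per kilobase (exon length) of its family, in percent, with 1 bar per library and Recurring left of Day 0. Ntrk3 forms the larger part of the Trk bar in 7 of 8 libraries, and the Sorl1 part ranges from 4.09% to 41.7% of the sortilin bar.

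The summed normalized count of the Trk receptors was 5201 ± 1446 in Recurring and 5136 ± 1926 in Day 0 cells, and that of the 4 measured sortilin family genes was 6461 ± 864 and 7225 ± 2573 (SD, n = 4 each). The highest sortilin family sum, 10971, was in Day 0 replicate 3 and the highest Trk sum, 7989, in Day 0 replicate 4.

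Patterns over the 8 libraries were compared by centring each gene's log2 level on its own mean and taking the mean absolute difference between genes, for which 0 means the same pattern. Among the 15 pairs of members, Ntrk3 and Sorcs3 were nearest at 0.31 log2 units, followed by Ntrk3 and Sort1 at 0.52 and Sort1 and Sorcs3 at 0.55. These are the 3 genes with the smallest spread, and genes that vary little are near each other by this measure. The pair farthest apart was Sorl1 and Sorcs1, at 3.60. In Day 0 replicate 4, Ntrk2 and Sorcs1 were 1.83 and 4.75 above their means while Sorl1 was 2.43 below its mean. In Day 0 replicate 3, Sort1 was 1.21 above and Ntrk2 2.21 below.

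**Figure D3:**
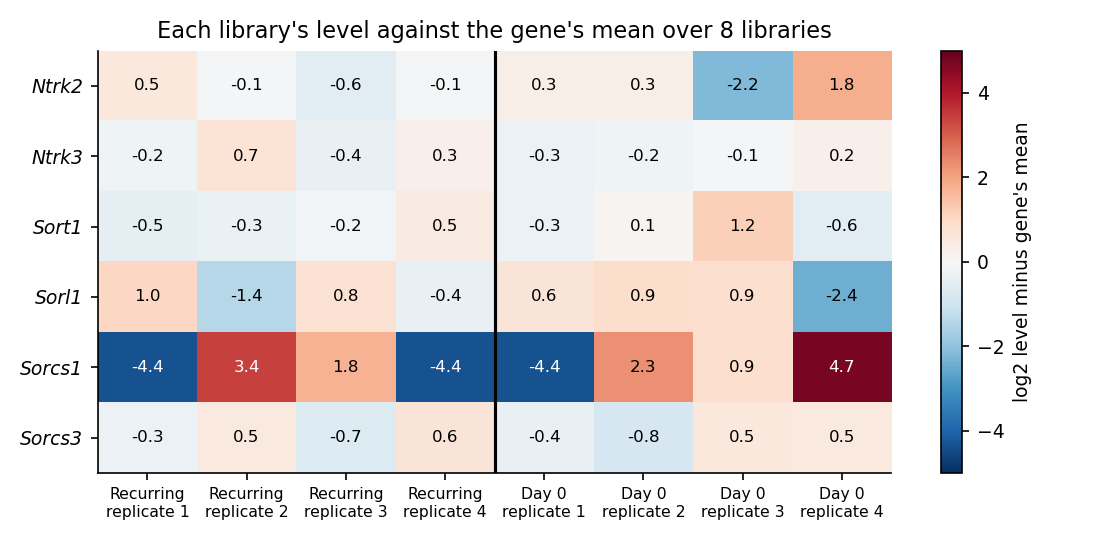
Each library's log2 level minus the gene's mean over the 8 libraries, with the value in each cell, red above and blue below the mean, and Recurring left of Day 0. Sorl1 reaches -2.43 and Ntrk2 1.83 in Day 0 replicate 4, and Ntrk2 reaches -2.21 in Day 0 replicate 3.

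Of 9652 tested genes, the one nearest to each member was named by the same measure. It was Canx, the endoplasmic reticulum chaperone calnexin, for Ntrk3 (0.16 log2 units), Slc24a2, a sodium, calcium and potassium exchanger, for Sorcs3 (0.17), and Slc26a4, the anion exchanger pendrin, for Sort1 (0.20). Cnot2, a subunit of the CCR4-NOT deadenylase complex, was nearest to Sorl1 (0.27), P4htm, a transmembrane prolyl hydroxylase, to Ntrk2 (0.28), and Nr2c1, an orphan nuclear receptor, to Sorcs1 (0.54). The medians over all candidates were 1.68 to 1.82 for the first 5 of these members and 3.39 for Sorcs1. Cnot2 had 3543, 450, 2744 and 1205 normalized counts in Recurring replicates 1 to 4, against 1841, 1707, 1972 and 200 in Day 0 replicates 1 to 4, and so was low in the same 3 libraries as Sorl1. The points share libraries and size factors, and the nearest of so many genes is a description of these 8 libraries.

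The ligands and the other receptors could be followed through Bdnf alone, 1 of 7 genes in that list; the p75 receptor gene Ngfr was among those not analysed here. Bdnf had 0.619, 1995, 971 and 750 normalized counts in Recurring replicates 1 to 4, against 687, 475, 449 and 1535 in Day 0 replicates 1 to 4. Recurring replicate 1 held a single Bdnf read, while 3 Recurring libraries were above 3 of the 4 Day 0 libraries. The difference was -1.65 (SE 1.67; 2-sided exact permutation p = 0.886), and it was 0.72 without Recurring replicate 1. That same library had the second-highest Ntrk2 level of all 8.

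Among 29 Trk adaptors and effectors, 25 were in the table and 22 were tested. None passed the adjusted p threshold in limma, with 11 higher and 11 lower in Recurring cells, a median difference of 0.06 and 2 past an unadjusted p of 0.05, both higher (as were 1.88% of all tested genes). The first was Kidins220, a membrane scaffold that binds Trk receptors and prolongs their signalling. It had 4416, 4586, 3801 and 4432 normalized counts in Recurring replicates 1 to 4, against 2137, 1995, 2572 and 1257 in Day 0 replicates 1 to 4. Every Recurring library was above every Day 0 library, as in 1.24% of all tested genes. The difference was 1.16 (SE 0.38, 95% interval 0.35 to 1.96), or 2.23-fold, with a 2-sided exact permutation p of 0.0286, the smallest that 70 assignments of the libraries allow. The limma p was 0.0075 before adjustment and 0.981 after it, so the call was not made. Kidins220 differed by 1.12 in the Xist libraries and by 1.19 in the Y-linked ones, and by 0.95 to 1.30 when each library was left out in turn. Because the groups did not overlap, its sign could not turn in any of these subsets. The gene was named for its small p in these same libraries. Without the variance trend its standard error was 0.59 and the limma p before adjustment 0.083.

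The other was Shc3, a neuronal adaptor that docks on activated Trk receptors. It had 24.2, 169, 91.1 and 192 normalized counts in Recurring replicates 1 to 4, against 0, 0, 25.1 and 0 in Day 0 replicates 1 to 4. Reads were in 4 of 4 Recurring libraries and in 1 of 4 Day 0 libraries, and that Day 0 library was above the lowest Recurring one. Libraries at 0 were common, since 5056 of the 11078 genes tested were at 0 in 1 or more. The difference was 5.37 (SE 2.08), with a 2-sided exact permutation p of 0.057 and a limma p of 0.019 before adjustment and 0.981 after it. Its size depends on the pseudocount of 1 because 3 libraries had no reads. Without Day 0 replicate 1 the limma p before adjustment was 0.051. The astrocyte and the microglia marker sum were each higher in 3 of 4 Recurring libraries than in any Day 0 library, and their part in Shc3 and Kidins220 was not tested. Outside the 22 genes tested, Shc1, Sh2b2 and Pik3cb had too few counts, and Gab1, Gab2, Shc4 and Plcg2 were not analysed here.

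**Figure D4:**
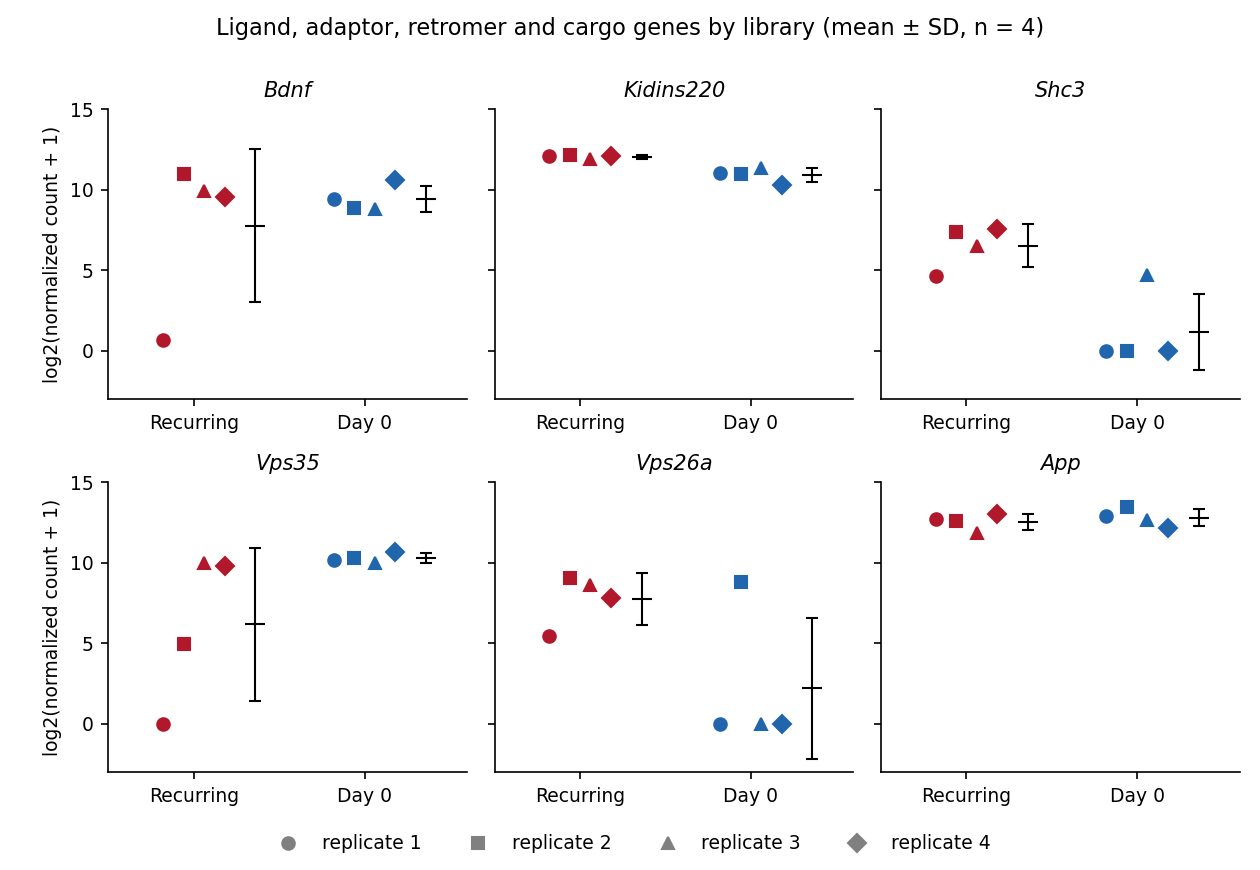
Level of 6 genes around the receptors as log2(normalized count + 1) in every library, Recurring (red) beside Day 0 (blue), with mean ± SD (n = 4). All 4 Recurring libraries lie above all 4 Day 0 libraries in Kidins220 and below them in Vps35, and Bdnf is near 0 in Recurring replicate 1 alone.

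All 24 sorting partners of the VPS10 receptors were in the table and tested, among them the retromer, which returns SORLA and sortilin from endosomes, and clathrin adaptors. None passed the adjusted p threshold in limma; 10 were higher and 14 lower in Recurring cells, with a median difference of -0.28. At an unadjusted p under 0.05 there was 1 in each direction (1.88% of all tested genes were higher and 1.74% lower), and both were retromer subunits of opposite sign. Vps35, the retromer's core subunit, had 0, 29.9, 1007 and 884 normalized counts in Recurring replicates 1 to 4, against 1158, 1285, 1025 and 1670 in Day 0 replicates 1 to 4. Every Recurring library was below every Day 0 library, as in 1.17% of tested genes, but replicates 3 and 4 of the Recurring group were close to the Day 0 range. The difference was -4.13 (SE 1.70; 2-sided exact permutation p = 0.0286), with a limma p of 0.027 before adjustment and 0.981 after it. It was -7.78 in the Xist libraries, -0.47 in the Y-linked ones and -2.07 without Recurring replicate 1. The limma p before adjustment was 0.087 without the variance trend, 0.068 with library weights and 0.052 to 0.065 when Recurring replicate 1 or 2 or Day 0 replicate 1, 2 or 4 was left out.

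Vps26a, the retromer subunit that binds the tail of SORLA, had 42.1, 528, 395 and 225 normalized counts in Recurring replicates 1 to 4. In Day 0 replicates 1 to 4 it had 0, 447, 0 and 0. It was thus read in all Recurring libraries and in Day 0 replicate 2, where it was above 3 of the 4 Recurring libraries. As with Shc3, libraries at 0 were common over all genes (5056 of 11078 tested genes had 1 or more). The difference was 5.53 (SE 2.48), with a 2-sided exact permutation p of 0.114 and a limma p of 0.040 before adjustment and 0.981 after it. Before adjustment it was 0.068 with a pseudocount of 10, 0.169 with library weights, and 0.059 to 0.091 without any 1 library other than Recurring replicate 1 and Day 0 replicate 2. Vps29, the remaining subunit of that core, differed by -0.70 (SE 0.78) and Vps26b by -1.35 (SE 2.38). Both had the sign of Vps35 and not that of Vps26a, and none of these retromer genes was called.

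Of 19 ligand and cargo genes of the VPS10 receptors, 18 were in the table and 17 were tested. None passed the adjusted p threshold in limma and none was past an unadjusted p of 0.05; 10 were higher and 7 lower in Recurring cells, with a median difference of 0.13. App, the amyloid precursor protein gene, had 6655, 6141, 3652 and 8462 normalized counts in Recurring replicates 1 to 4, against 7860, 11378, 6494 and 4591 in Day 0 replicates 1 to 4. The groups overlapped, and the difference was -0.27 (SE 0.35, 95% interval -1.004 to 0.465). Its size moved with single libraries, to -0.034 and -0.44 when Recurring replicate 3 or 4 was left out and to -0.048 and -0.48 when Day 0 replicate 2 or 4 was, and it was -0.71 with library weights. Grn, the gene of the sortilin ligand progranulin, had 676, 521, 39.2 and 1223 normalized counts in Recurring replicates 1 to 4 and 333, 399, 508 and 756 in Day 0 replicates 1 to 4. The low value of Recurring replicate 3 set its sign: the difference was -0.39 (SE 1.05), and 0.67 without that library. The 2 genes of this list with the smallest p were Pcsk1, a prohormone convertase, at 4.32 (SE 2.33), and the neurexin gene Nrxn3 at 0.73 (SE 0.43), and both had overlapping groups.

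**Figure D5:**
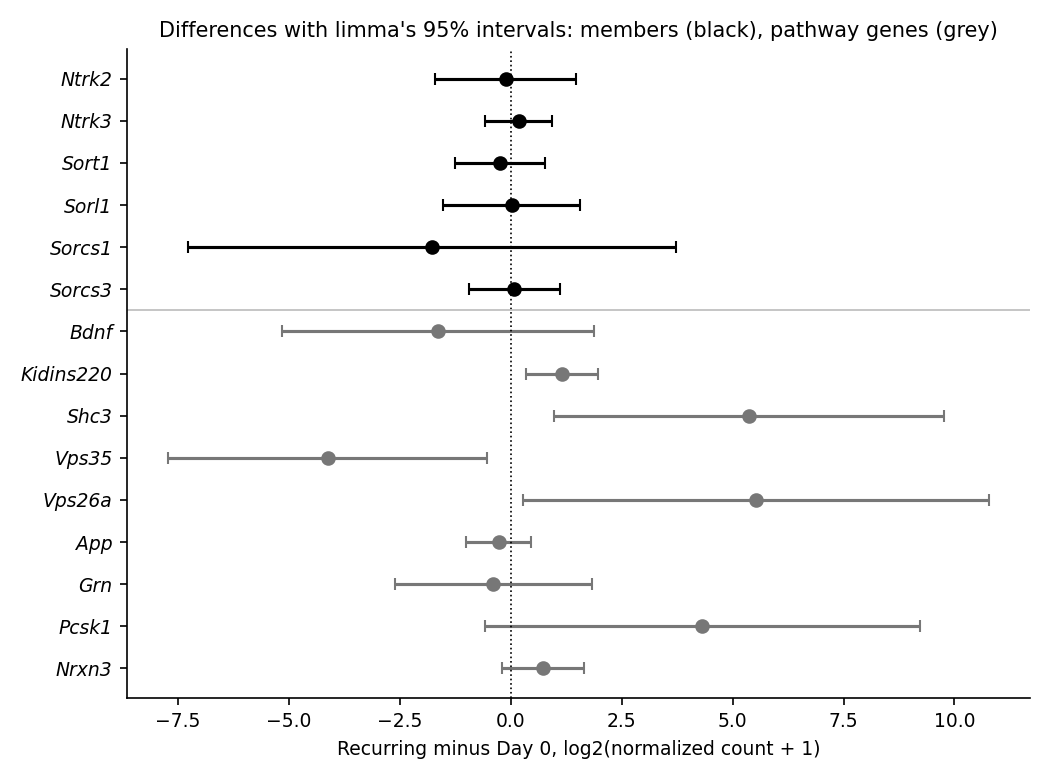
Recurring minus Day 0 on the scale log2(normalized count + 1), with limma's 95% intervals before any adjustment for the number of genes, for the 6 receptor genes (black) and 9 genes around them (grey). All 6 black intervals hold 0, and the intervals of Kidins220, Shc3, Vps35 and Vps26a do not.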

How the data were processed

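The members and gene lists were chosen with earlier results of these data known. Per the labels, a SMART-Seq kit for mRNA was used; STAR, HTSeq and GRCm39 are named in the submitters' processing notes. Whether counting used strand is not given in the sources used here, and antisense genes overlap exons of Sort1, Sorl1 and Sorcs1. The authors deposited a scaled signal per gene and library, not logged. Each gene's constant matched a trimmed-mean factor computed with genes in place of libraries; dividing it out gave whole reads (tolerance 0.1 read) for 95910 of 95910 values above 0. The deposited signal is thus not corrected for depth.

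Library size factors came from medians of ratios (0.837 to 1.61). The reads over these factors are the normalized counts, and log2(normalized count + 1) was fitted for all 8 libraries with limma 3.58.1 (R 4.3.3), with a variance trend and Benjamini-Hochberg adjustment, for genes at 10 or more in at least 4 libraries. The fit was tested on simulated data. Fitted fold changes of low genes depend on the pseudocount of 1: the Shc3 difference was 6.11 with a pseudocount of 0.5 and 2.95 with 10. With libraries at 0 they can also lie far from the ratio of mean counts. Vps26a was fitted at 46.2-fold, with mean normalized counts of 298 in Recurring and 112 in Day 0 cells. Limits for a count of 0 cover counting error only. Exact permutation tests used all 70 assignments, 2-sided. Replicate numbers follow the order of deposit and pair no libraries.

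Genes named are the members, Bdnf, Ngfr, App and Grn, the 2 tested genes of smallest p in each of 4 lists, the tested gene nearest to each member, and the highest marker of each list. Some items the rule takes are not reported here. The markers so named were Gria2 (CA1), Slc1a2 (astrocyte), Sst (interneuron), Tnr (oligodendrocyte precursor), Ctss (microglia), Rfx3 (dentate) and Elavl2 (CA3). Summed markers of oligodendrocyte precursors (4 of 6 genes) were 939 to 1625 in Recurring and 311 to 2786 in Day 0 libraries, of dentate granule cells (6 of 8) 1963 to 5696 and 2622 to 3537, and of CA3 cells (6 of 7) 177 to 4907 and 435 to 1652. Shc1, Sh2b2, Pik3cb, Vps29, Vps26b and Camk2a were named after their values were seen.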

Additional observations from a re-analysis of the deposited data

Results flagged for a closer look

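In 30 groups of 4 libraries, those of the 6 receptor genes and 9 genes around them, a library far from the other 3 was looked for, and 4 were found; chance gives such a library in about 1 in 20 groups of values without ties. Sorl1 in Day 0 replicate 4 was at a log2 level of 8.33, and the nearest Day 0 library was at 11.39. Bdnf in Recurring replicate 1 was at 0.70, and the nearest Recurring library was at 9.55. Shc3 in Day 0 replicate 3 was at 4.71 and Vps26a in Day 0 replicate 2 at 8.81, with the other Day 0 libraries tied at 0 in each, so that rate does not apply to these 2. These are 4 different libraries. What set them apart was not tested.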

How the results depend on the processing

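No paired analysis was possible because the replicate numbers follow the order of deposit. The number of genes called was 0 under 10 alternatives (other pseudocounts, filters, scalings, limma voom, library weights and the Xist or Y-linked pattern as a covariate) and without each library in turn, and 2, neither of them among the 6 receptor genes or the 9 genes around them, without the variance trend. At an unadjusted p under 0.05, 208 genes were higher and 193 lower, 250 and 268 by voom, and 240 and 132 with the deposited values as they stand. Of the 6 receptor genes, Sorl1 alone reversed under another setting over all libraries: -0.024 with equal total reads, -0.0016 with trimmed-mean scaling and -0.40 with library weights; the cause was not tested. Leaving out 1 library gave -0.87 to 0.48 for Ntrk2, -0.018 to 0.33 for Ntrk3, -0.46 to 0.13 for Sort1, -0.79 to 0.50 for Sorl1, -3.52 to -0.49 for Sorcs1, -0.19 to 0.32 for Sorcs3, -2.71 to 0.72 for Bdnf, -0.48 to -0.034 for App and -0.98 to 0.67 for Grn. In the Xist or Y-linked libraries alone, Ntrk3 was -0.12, Sorl1 -0.95, Sorcs1 0.55 and Sorcs3 -0.53 in the part that turned. Over these settings the adjusted p of the 6 genes was never below 0.944. Kidins220, named for its small p in these same libraries, was at 1.04 to 1.26 under the alternatives. Its limma adjusted p was 0.913 to 0.999, and before adjustment it was under 0.05 except without the variance trend (0.083). The share of Sort1 in its family was 34.7% by exon length and 45.5% by coding length. Under a filter of 50 in at least 6 libraries, Sorcs1, Shc3, Vps26a and Pcsk1 were not tested.

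Sorcs1 had no reads in 3 of 8 libraries, the deepest one among them; the other receptor genes had at least 177 reads in each library. In all 6 the spread between libraries was larger than the error of counting reads at the mean, which leaves out the capture of RNA.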

Other observations

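Among the genes around the receptors, 3 with a standard error under 0.45 were chosen after their values were seen: the ubiquitin ligases Nedd4l and Nedd4 and the App relative Aplp2. Nedd4l averaged 4837 normalized counts in Recurring and 5427 in Day 0 cells, a log2 difference of -0.24 (SE 0.35, 95% interval -0.98 to 0.51). Nedd4 averaged 2892 and 3361 (difference -0.27, SE 0.40, interval -1.12 to 0.59). Aplp2 averaged 4448 in Recurring and 4093 in Day 0 cells (difference 0.13, SE 0.38, interval -0.67 to 0.93). None of these 3 passed limma's adjusted p threshold, and each interval holds 0.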
